A study of Mus musculus with 4 samples.

Results

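The genes described here are 42 interferon-stimulated and MHC class I genes of the mouse, taken by symbol from a count table of 50600 genes. The RNA came from the colonic epithelium of C57BL/6 mice, as primary cells, and was sequenced in 2 libraries labelled Mettl14 knockout (KO) and 2 labelled wild type (WT). The METTL14 protein pairs with METTL3 to form the enzyme that deposits N6-methyladenosine on mRNA. The labels name no promoter or Cre line behind the deletion, no age and no treatment, and the sample titles carry a code (C-2W) that they do not explain, so in which cells and for how long Mettl14 was absent cannot be stated from them. They also do not describe how the cells were isolated, and fewer cells of a type and less RNA per cell cannot be told apart in bulk samples. All 42 genes passed the filter on low counts, as did 14861 genes in all.

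Total counts per library ran from 22136440 to 24991060. Levels are in CPM, counts scaled to library size times a TMM factor (0.993 and 1.13 in KO, 0.938 and 0.952 in WT libraries). Where library size scaling is named as an alternative, these factors were left out. A pair of values for a genotype gives replicate 1 and then replicate 2. Where no read was counted, up to 3 counts per library (0.117 to 0.145 CPM) could still have been missed, by counting error alone. Mettl14 itself, the check of the labels, stood at 3.99 and 3.94 CPM in KO, against 11.7 and 8.67 CPM in WT libraries (log2 fold change -1.36, SE 0.22; edgeR adjusted p = 0.0504). All 10 epithelial markers were detected, at a summed 7680 to 8582 CPM in KO and 9421 to 11432 CPM in WT libraries, and the pan-leukocyte gene Ptprc was also present, at 86.8 and 69.6 CPM in KO, against 63.1 and 77.6 CPM in WT libraries. Xist and Y-linked genes read KO replicate 1 and WT replicate 2 as female, and KO replicate 2 and WT replicate 1 as male. Each genotype therefore held 1 library of each sex, and a sex difference within a genotype cannot be told apart from any other difference between its libraries. Since the 2 libraries of a genotype differ in sex, they must derive from different animals. Nothing further on the animals is in the labels, and a p-value here reflects no more than the spread among these 4 libraries.

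Interferons are secreted proteins, of which cells release types I and III on sensing viral or bacterial nucleic acids. Type I and type III interferons signal through Jak1 and Tyk2 to a complex with Stat2 and Irf9 that binds the interferon-stimulated response element, whereas interferon-gamma acts through the gamma-activated site. The genes that these factors switch on block viral replication, and many of them also raise the display of peptides on MHC class I: the immunoproteasome cuts proteins into peptides, Tap1 and Tap2 pump these into the endoplasmic reticulum, and tapasin loads them on class I molecules with their light chain B2m. In the gut, epithelial cells are a main target of type III interferon and carry a steady level of such transcripts even without infection.

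The members lie on 14 chromosomes, and many sit in tandem families whose copies resemble each other (GENCODE M21 coordinates, GRCm38). The 5 Ifit genes occupy chromosome 19 from 34550694 to 34650009, and Oas1a, Oas1g, Oas2 and Oas3 occupy chromosome 5 from 120730333 to 120907521. Gbp2, Gbp3 and Gbp7 lie on chromosome 3 from 142530342 to 142638008. Psmb8, Psmb9, Tap1 and Tap2 share a 34.3 kb stretch of the MHC on chromosome 17, from 34181987 to 34216321. Reads from paired copies such as Ifit3 and Ifit3b, Oas1a and Oas1g, or H2-K1 and H2-D1 may have been divided between them in more than one way, so values for single copies carry that uncertainty.

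RefSeq promoter windows (GRCm38.p6, 250 bases before to 50 bases after each start) were found for 31 of the 42 members. The core of the interferon-stimulated response element, searched as GAAANNGAA on both strands, occurred in 18 of these 31 (58.1%), against 2638 of 27025 genes with a window (9.76%). The core of the gamma-activated site, searched as TTCNNNGAA, which reads the same on both strands, occurred in 6 of 31 (19.4%), against 9.55% of all genes. Stretches from 170 bases before the start to 20 bases after it are shown for 6 members, because they span the kinds of window found: overlapping cores, a single core, and none. Capitals mark either core.
Isg15, chr4:156200799-156200988, minus strand: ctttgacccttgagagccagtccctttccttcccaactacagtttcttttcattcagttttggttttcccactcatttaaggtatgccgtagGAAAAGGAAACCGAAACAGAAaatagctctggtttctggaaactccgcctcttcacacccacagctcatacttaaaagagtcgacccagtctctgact
Bst2, chr8:71537453-71537642, minus strand: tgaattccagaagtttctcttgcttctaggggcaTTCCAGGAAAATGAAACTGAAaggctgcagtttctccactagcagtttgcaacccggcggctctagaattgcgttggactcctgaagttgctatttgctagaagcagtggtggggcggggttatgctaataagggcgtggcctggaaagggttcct
Gbp2, chr3:142620493-142620682, plus strand: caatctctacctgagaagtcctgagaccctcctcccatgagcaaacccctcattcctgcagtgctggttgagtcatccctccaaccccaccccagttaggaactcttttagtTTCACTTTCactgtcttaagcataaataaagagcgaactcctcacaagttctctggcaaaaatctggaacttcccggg
B2m, chr2:122147517-122147706, plus strand: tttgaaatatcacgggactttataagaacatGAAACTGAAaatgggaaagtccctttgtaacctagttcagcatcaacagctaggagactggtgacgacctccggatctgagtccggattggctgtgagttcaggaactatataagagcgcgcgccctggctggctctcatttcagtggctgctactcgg
Tap1, chr17:34187386-34187575, plus strand: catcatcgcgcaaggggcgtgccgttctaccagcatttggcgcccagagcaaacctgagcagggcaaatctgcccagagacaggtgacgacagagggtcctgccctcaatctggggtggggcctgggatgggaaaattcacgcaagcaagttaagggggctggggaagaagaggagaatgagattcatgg
H2-K1, chr17:34000328-34000517, minus strand, 1 of 2 RefSeq starts: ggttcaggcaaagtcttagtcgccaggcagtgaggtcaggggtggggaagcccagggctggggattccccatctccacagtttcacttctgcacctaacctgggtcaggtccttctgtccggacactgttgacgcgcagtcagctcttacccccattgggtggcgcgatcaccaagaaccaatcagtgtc

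In the Isg15 window 3 response element cores overlapped, beginning 78, 72 and 66 bases before the start. In Bst2 a gamma-activated site core overlapped the first of 2 response element cores, so the capitals run on through all 3 matches. Gbp2 and B2m had 1 response element core each, and Tap1 and H2-K1 had neither core in their windows. The Tap1 window lies on the opposite strand to that of Psmb9, and the 2 windows overlap. By role, a response element core was found in 4 of 5 Ifit, 3 of 5 Oas, 3 of 3 Gbp and 4 of 4 other effector genes with a window, but in 0 of 3 immunoproteasome and 0 of 2 peptide loading genes. Such a match describes letters in a window and does not show that a factor binds there. A window without a match may still hold a response element, since only exact cores were searched.

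Levels were set against each other only per length, as RPKM (CPM per kilobase of exon). Averaged over the 4 libraries, the members spanned from 0.445 RPKM for Mx2 to 478 RPKM for B2m. The 3 class I molecules came first, with B2m at 510 RPKM in KO and 445 RPKM in WT libraries, H2-D1 at 322 RPKM in KO and 302 RPKM in WT, and H2-K1 at 239 RPKM in KO and 329 RPKM in WT libraries. Ifit1bl1 (119 RPKM in KO, 98.6 RPKM in WT) and Ifi27l2b (82.9 RPKM in KO, 97.4 RPKM in WT) followed. Tapbp, Irf7, Isg15, Psmb10 and Oas1a completed the first 10. Gbp7, Nlrc5, Oas3, Ifi44 and Mx2 were the lowest 5. H2-K1 was above H2-D1 per length in WT replicate 1 only, and the order of these 2 neighbours was not fixed across libraries.

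**Figure D1:**
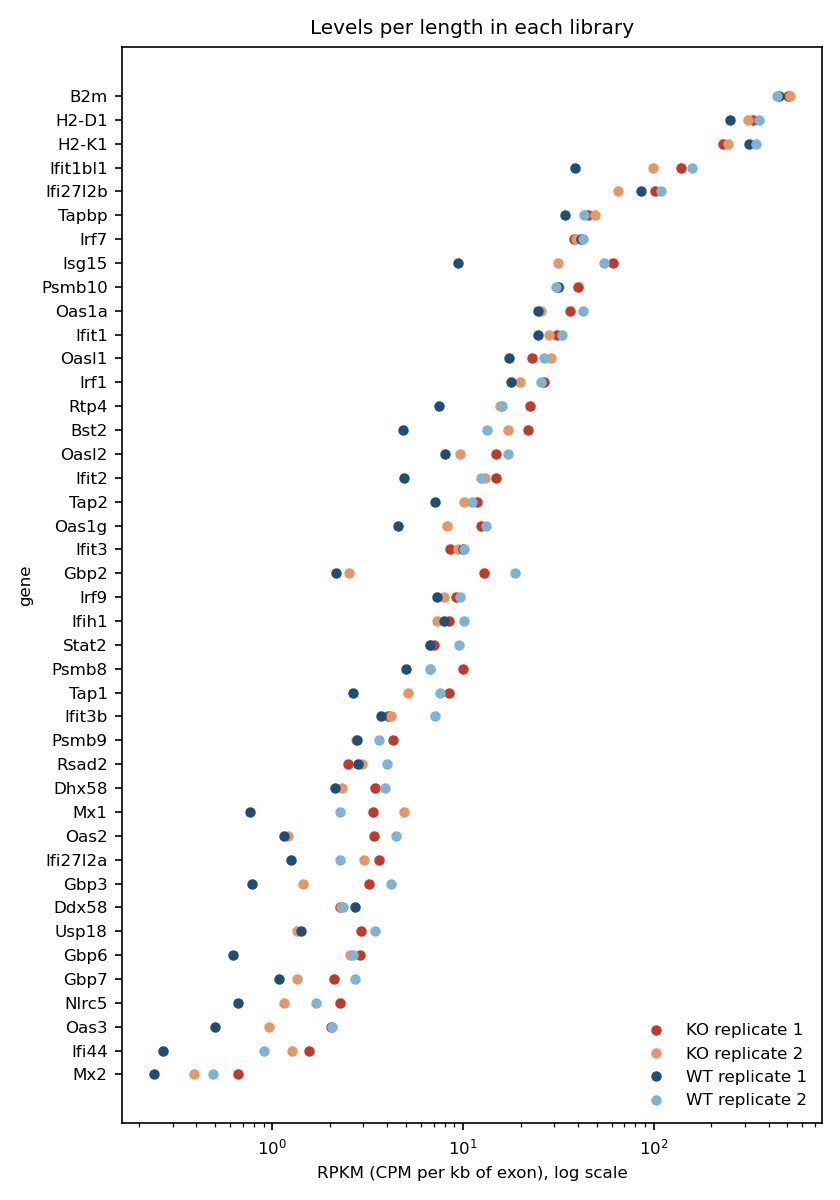
Levels per length of the 42 members (rows, ordered by their mean) on a log axis in RPKM, 1 point per library (KO replicate 1 in red, KO replicate 2 in orange, WT replicate 1 dark blue, WT replicate 2 light blue). The class I molecules B2m, H2-D1 and H2-K1 stand highest, and many members with low or middle levels have their lowest point in WT replicate 1.

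The comparison of KO with WT cells asks which transcripts differ when Mettl14 is deleted. None of the 42 members was called higher or lower in KO by edgeR's quasi-likelihood test at an adjusted p under 0.05 over all genes, where 1.72% of tested genes (255) were called higher and 1.90% (282) lower. Library size scaling called 4.06% of tested genes (604) higher and 1.25% (186) lower, again without a member. No member was called by edgeR without a filter (background 3.54% higher and 3.16% lower), with a minimum of 1 CPM in 2 libraries (background 2.76% higher and 2.92% lower) or with its legacy and robust options off (background 1.79% higher and 2.01% lower). At an unadjusted p under 0.05, edgeR gave 1 member higher (Mx1) and 1 lower (H2-K1), which is 4.76% of the members against 30.5% of all tested genes. Adjusted p of the members ran from 0.127 to 0.959. Limma-voom called 0 members (background 1.90% higher and 2.02% lower), and DESeq2 called Mx1 higher and H2-K1 lower (background 6.41% higher and 6.56% lower). The median log2 fold change of the members was 0.12, against -0.01 over all tested genes, and 25 were positive and 17 negative (32 positive with library size scaling, which moved the median of all tested genes to 0.15). The standard error of the log2 fold change had a median of 0.35 for the members and 0.20 for all tested genes.

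The 2 WT libraries gave different answers when each stood alone. Against WT replicate 1 alone, edgeR called 7 members higher, namely Ifit1bl1, Ifit2, Mx1, Bst2, Ifi44, Gbp6 and Tap2, and 0 lower (background 8.11% higher and 6.50% lower), with 14 higher and 0 lower at an unadjusted p under 0.05 (2847 and 2560 of 15677 tested genes) and a member median log2 fold change of 0.63. Against WT replicate 2 alone it called 0 members (background 3.37% higher and 4.58% lower; 3 were higher and 5 lower at an unadjusted p under 0.05, as were 2275 and 2435 of 15696 tested genes), with a median of -0.17. In both fits the lone WT library was assumed to vary like the KO libraries. Gbp6 had a log2 fold change of 2.16 against WT replicate 1 (edgeR adjusted p = 0.0131; 0.0131 to 0.903 over the alternatives) and 0.03 against WT replicate 2.

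**Figure D2:**
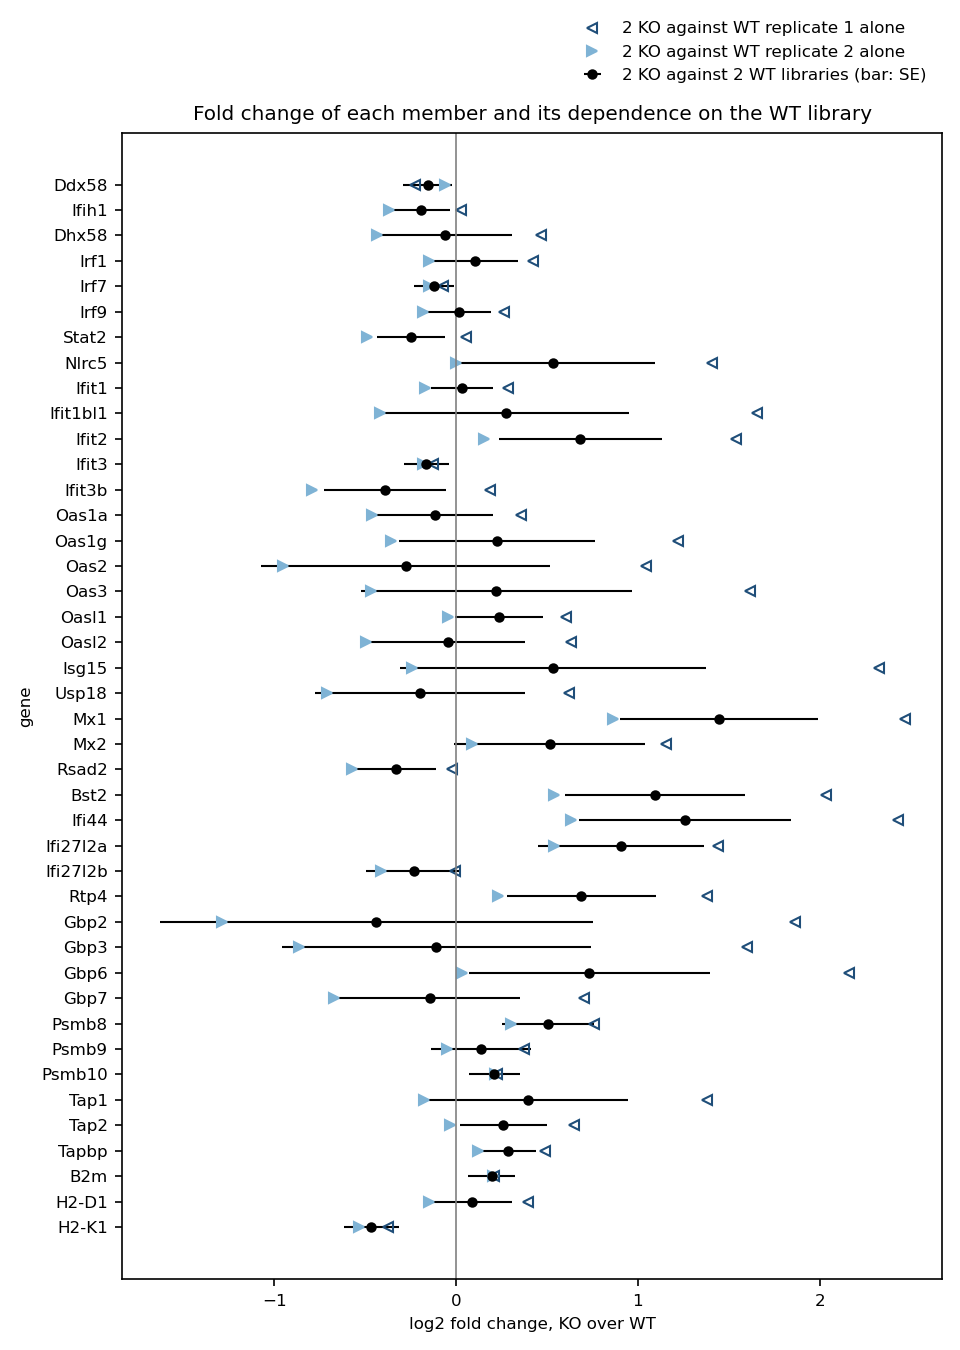
Log2 fold change (KO over WT) of each member, with black points and SE bars for all 4 libraries, open triangles for KO against WT replicate 1 alone and filled triangles for KO against WT replicate 2 alone. For Isg15 the triangles stand at 2.33 and -0.24, and for B2m at 0.21 and 0.20.

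In 8 members both KO libraries lay above both WT libraries, where 31.1% of tested genes did so, and in 4 both lay below (32.2% of tested genes). In the other 30 the genotypes overlapped. The 8 were Ifit2, Mx1, Bst2, Ifi44, Ifi27l2a, Psmb10, Tapbp and B2m, and the 4 were Ddx58, Irf7, Ifit3 and H2-K1. With library size scaling the counts became 12 and 1, while 40.6% of tested genes stood above and 19.8% below, and the log2 fold changes of Ddx58, Irf7 and Ifit3 became 0.010, 0.046 and 0.0065.

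Among the 3 cytosolic RNA sensors, all log2 fold changes were slightly negative, from -0.19 to -0.06, though with library size scaling those of Ddx58 and Dhx58 were 0.010 and 0.087. Ddx58, which encodes the sensor RIG-I, stood at 16.0 and 16.1 CPM in KO, against 19.1 and 16.6 CPM in WT libraries (log2 fold change -0.16, SE 0.13). Ifih1, the sensor MDA5 of long double-stranded RNA, stood at 68.9 and 59.9 CPM in KO, against 64.6 and 82.6 CPM in WT libraries (log2 fold change -0.19, SE 0.16). Dhx58, the regulatory helicase LGP2, stood at 11.4 and 7.56 CPM in KO, against 6.99 and 12.7 CPM in WT libraries (log2 fold change -0.06, SE 0.37). Ddx58 was flat across the 4 libraries apart from a small excess in WT replicate 1, whereas Dhx58 was low in KO replicate 2 and WT replicate 1.

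The 5 transcriptional regulators had log2 fold changes between -0.25 and 0.53. Nlrc5, the transactivator of class I genes, stood at 19.3 and 9.82 CPM in KO, against 5.59 and 14.4 CPM in WT libraries (log2 fold change 0.53, SE 0.56), with its lowest value in WT replicate 1 and the next lowest in KO replicate 2. Stat2, a subunit of the complex that binds the response element, stood at 41.5 and 39.6 CPM in KO, against 39.9 and 56.5 CPM in WT libraries (log2 fold change -0.25, SE 0.19). Irf7, which amplifies type I interferon production, was nearly even at 144 and 148 CPM in KO, against 157 and 160.4 CPM in WT libraries (log2 fold change -0.12, SE 0.11). Irf1 (0.10) and Irf9 (0.02) overlapped between genotypes. The regulators other than Nlrc5 stayed within 1.44-fold between the WT libraries, while Nlrc5 differed 2.58-fold between them.

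The Ifit family encodes proteins that bind foreign RNA ends and block translation, and its members did not move as a block. Ifit1bl1, the most abundant per length, stood at 315 and 224 CPM in KO, against 87.5 and 358 CPM in WT libraries (log2 fold change 0.27, SE 0.68). Ifit2 stood at 58.1 and 51.4 CPM in KO, against 19.2 and 48.8 CPM in WT libraries (log2 fold change 0.68, SE 0.45). In both genes WT replicate 1 was far below the other 3 libraries, and in Ifit2 this library and WT replicate 2 both lay under KO. Ifit3 stood at 14.9 and 16.4 CPM in KO, against 17.5 and 17.6 CPM in WT libraries (log2 fold change -0.16, SE 0.12), close to even in every library. Its near copy Ifit3b stood at 8.11 and 8.38 CPM in KO, against 7.42 and 14.2 CPM in WT libraries (log2 fold change -0.39, SE 0.34), high in WT replicate 2 only. Ifit1 (0.03) overlapped between genotypes.

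The Oas genes encode synthetases that sense double-stranded RNA and make short oligoadenylates as a second messenger, and Oasl1 and Oasl2 encode relatives of them. All 6 had their lowest value in WT replicate 1, all 6 overlapped between genotypes, and log2 fold changes ran from -0.28 to 0.24. Oas1a, highest per length, stood at 68.7 and 48.5 CPM in KO, against 46.8 and 80.1 CPM in WT libraries (log2 fold change -0.12, SE 0.32). Oas2 stood at 15.3 and 5.38 CPM in KO, against 5.11 and 19.8 CPM in WT libraries (log2 fold change -0.28, SE 0.80), high in 1 library of each genotype and low in the other. Oasl1, a repressor of Irf7 translation in mice, stood at 59.5 and 74.9 CPM in KO, against 45.2 and 68.9 CPM in WT libraries (log2 fold change 0.24, SE 0.24). Unlike Oas2, its higher KO library was replicate 2. Oas3 differed 4.13-fold and Oas1g 2.89-fold between the WT libraries, and Oasl2 2.13-fold.

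Of the 10 other effectors, 7 had positive log2 fold changes, and the group median was 0.61 (0.16 without WT replicate 1, 0.23 without KO replicate 1, 0.94 without KO replicate 2 and 1.41 without WT replicate 2). Isg15, a ubiquitin-like protein that is joined to other proteins, stood at 46.3 and 23.8 CPM in KO, against 7.13 and 41.2 CPM in WT libraries (log2 fold change 0.53, SE 0.84), low in WT replicate 1 and overlapping elsewhere. Mx1, a dynamin-like GTPase that is non-functional in C57BL/6 mice because of a deletion in the gene, stood at 12.7 and 18.6 CPM in KO, against 2.89 and 8.54 CPM in WT libraries (log2 fold change 1.45, SE 0.55; edgeR adjusted p = 0.164). DESeq2 gave Mx1 an adjusted p of 0.0490, and its adjusted p ran from 0.0213 to 0.510 over the alternatives. Both KO libraries lay above both WT libraries, by 5.42-fold over WT replicate 1 and 1.83-fold over WT replicate 2 for the KO mean.

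Bst2, the membrane tether that holds budding viruses, stood at 19.6 and 15.6 CPM in KO, against 4.38 and 12.0 CPM in WT libraries (log2 fold change 1.10, SE 0.49). Ifi44 stood at 9.58 and 7.75 CPM in KO, against 1.64 and 5.56 CPM in WT libraries (log2 fold change 1.26, SE 0.58). The mitochondrial protein gene Ifi27l2a stood at 1.68 and 1.40 CPM in KO, against 0.578 and 1.05 CPM in WT libraries (log2 fold change 0.91, SE 0.46), at 12 to 38 counts per library. These 3 shared with Mx1, and with Ifit2 and Tapbp, the order in which WT replicate 1 was lowest, WT replicate 2 next and the KO libraries highest. Rsad2, which encodes viperin, went the other way at 10.8 and 12.7 CPM in KO, against 12.2 and 17.4 CPM in WT libraries (log2 fold change -0.33, SE 0.22), with WT replicate 2 highest. Ifi27l2b, the more abundant Ifi27l2 copy per length, stood at 110.5 and 70.8 CPM in KO, against 93.1 and 119.7 CPM in WT libraries (log2 fold change -0.23, SE 0.26). The deISGylase gene Usp18 (-0.20), Mx2 (0.52) and Rtp4 (0.69) overlapped between genotypes.

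Guanylate binding proteins coat intracellular pathogens, and their genes showed the widest spread between libraries of 1 genotype. Gbp2 stood at 32.5 and 6.35 CPM in KO, against 5.44 and 47.0 CPM in WT libraries (log2 fold change -0.44, SE 1.19), an 8.63-fold difference between the WT libraries. Gbp6 stood at 17.2 and 15.3 CPM in KO, against 3.71 and 15.8 CPM in WT libraries (log2 fold change 0.73, SE 0.66), even in 3 libraries and low in WT replicate 1. Gbp3 (-0.11) and Gbp7 (-0.15) had the pattern of Gbp2, with KO replicate 2 and WT replicate 1 both low. All 4 had their lowest value in WT replicate 1.

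The 9 genes of the class I pathway had log2 fold changes between -0.47 and 0.50. The immunoproteasome genes Psmb8, Psmb9 and Psmb10, which encode the interferon-inducible catalytic subunits, all had positive log2 fold changes without a call. Psmb8 stood at 33.7 and 22.7 CPM in KO, against 17.1 and 22.7 CPM in WT libraries (log2 fold change 0.50, SE 0.25). Psmb10 stood at 68.3 and 54.4 CPM in KO, against 53.6 and 52.5 CPM in WT libraries (log2 fold change 0.21, SE 0.14), and Psmb9 at 15.7 and 10.1 CPM in KO, against 10.2 and 13.3 CPM in WT libraries (log2 fold change 0.14, SE 0.27). Only in Psmb10 of the 3 did the genotypes not overlap, and by a narrow margin. The summed CPM of these 3 genes relative to their constitutive counterparts Psmb5, Psmb6 and Psmb7 was 0.940 and 0.729 in KO libraries, against 0.674 and 0.711 in WT libraries. The constitutive genes themselves were even, at a summed 120 to 125 CPM in KO and 120 to 124 CPM in WT libraries.

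The transporter genes Tap1 and Tap2 had log2 fold changes of 0.40 and 0.26, and Tapbp, which encodes tapasin, of 0.28. Tap1 stood at 46.1 and 28.0 CPM in KO, against 14.5 and 41.5 CPM in WT libraries (log2 fold change 0.40, SE 0.55), with WT replicate 1 alone well below the rest. Tap2 stood at 44.6 and 38.4 CPM in KO, against 27.1 and 42.3 CPM in WT libraries (log2 fold change 0.26, SE 0.24). Tapbp stood at 163 and 178 CPM in KO, against 124 and 156 CPM in WT libraries (log2 fold change 0.28, SE 0.16), above WT in both KO libraries but by less than 1.5-fold.

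The class I molecules themselves took 50.5% and 56.0% of the summed member CPM in KO libraries, and 62.6% and 53.3% in WT libraries. The light chain gene B2m stood at 432 and 445 CPM in KO, against 388 and 378 CPM in WT libraries (log2 fold change 0.20, SE 0.13). H2-D1 stood at 856 and 803 CPM in KO, against 646 and 914 CPM in WT libraries (log2 fold change 0.09, SE 0.22), overlapping between genotypes. Of these 3 genes H2-K1 alone had both KO values below both WT values, at 680.2 and 722 CPM in KO, against 928 and 1008 CPM in WT libraries (log2 fold change -0.47, SE 0.15; edgeR adjusted p = 0.127). DESeq2 gave H2-K1 an adjusted p of 0.0333, and its adjusted p ran from 0.0333 to 0.508 over the alternatives. The ratio of H2-K1 to H2-D1 CPM was 0.795 and 0.899 in KO libraries, against 1.44 and 1.10 in WT libraries, without overlap. Both genes encode heavy chains that share much of their sequence, and their reads may have been divided unevenly.

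**Figure D3:**
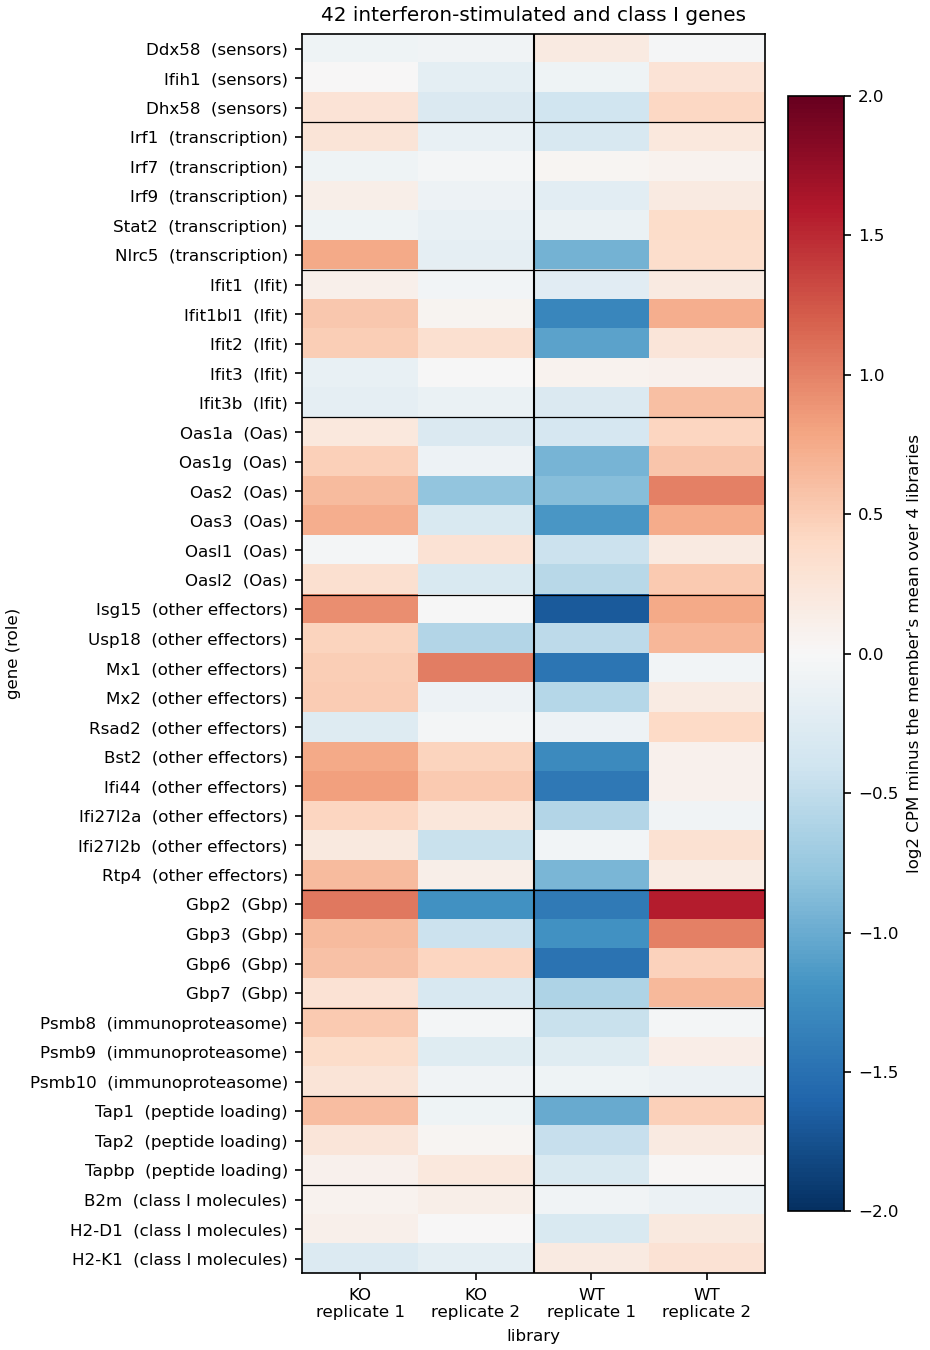
Log2 CPM of each member (rows, grouped by role) in the 2 KO and 2 WT libraries (columns), minus its mean over the 4 libraries. Blue cells in the column of WT replicate 1 show that it was the lowest library in 30 of the 42 members.

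The largest differences among the members were between the WT libraries. WT replicate 2 exceeded WT replicate 1 in 39 of 42 members (92.9%), against 48.8% of tested genes. The difference was over 1 log2 unit in 18 members (42.9%), against 3.49% of tested genes, and 0 members differed by that much the other way. WT replicate 1 was the lowest of the 4 libraries in 71.4% of the members and in 28.2% of tested genes. The summed CPM of the members other than the class I molecules was 1929 and 1549 in KO libraries, against 1170.0 and 2018 in WT libraries. The median difference between WT replicates 2 and 1 was 2.09 log2 units for the Gbp genes, 1.29 for Oas, 1.14 for the other effectors, 0.89 for Ifit and 0.12 for the class I molecules.

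The KO libraries differed in the same sense but by less. KO replicate 1 exceeded KO replicate 2 in 32 of 42 members (76.2%), against 49.4% of tested genes. In 31 members (73.8%) both WT replicate 2 exceeded WT replicate 1 and KO replicate 1 exceeded KO replicate 2, that is, the female library was the higher one in both genotypes, against 27.5% of tested genes. With sex as a covariate edgeR again called 0 members (background 4.68% higher and 4.80% lower). At an unadjusted p under 0.05 that fit gave 5 members higher and 1 lower, where 2482 and 2508 of 14861 tested genes passed. The median log2 fold change of the members in it was 0.15. Members with a response element core in their window had a median difference of 1.08 log2 units between the WT replicates (n = 18), and those without a core 0.40 (n = 13). For KO replicate 2 minus KO replicate 1 the medians were close, at -0.31 with a core and -0.22 without. The median log2 fold change of KO over WT was -0.11 and 0.14 in these 2 sets.

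**Figure D4:**
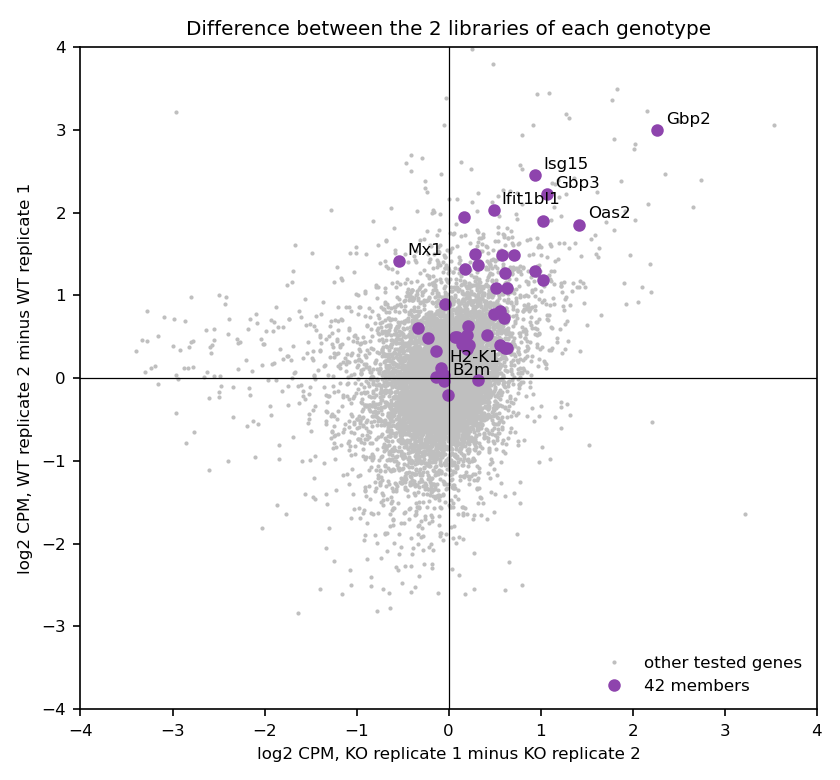
Difference in log2 CPM between KO replicates 1 and 2 (horizontal) and between WT replicates 2 and 1 (vertical) for the 42 members (purple) and all other tested genes (grey). Genes beyond 4 log2 units are not shown, 31 members lie in the upper right, and Gbp3 stands at 1.07 and 2.22.

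The remaining pathway was read from 103 further genes, of which 92 passed the filter and 1 was called higher and 0 lower. Of 11 interferon genes, 8 had 0 counts in every library and Ifng alone passed the filter, at 1.29 and 0.701 CPM in KO, against 0.771 and 1.47 CPM in WT libraries (log2 fold change -0.19, SE 0.55). Messages of the other 2 genes were too few to test. Of 6 receptor genes none was called by edgeR, although 5 had an unadjusted p under 0.05 (30.5% of all tested genes did). The groups of these 5 did not overlap, with KO above in 2 and below in 3, where 31.1% and 32.2% of all tested genes did so. Ifnar1 and Ifnar2, the type I receptor chains, were above WT in both KO libraries. Ifnar2 stood at 10.4 and 10.3 CPM in KO, against 4.96 and 6.27 CPM in WT libraries (log2 fold change 0.88, SE 0.19; edgeR adjusted p = 0.0670). Ifnlr1 and Il10rb, the chains of the type III receptor, and Ifngr2 were below WT in both. Ifnlr1 stood at 10.1 and 10.6 CPM in KO, against 16.6 and 20.4 CPM in WT libraries (log2 fold change -0.83, SE 0.16; edgeR adjusted p = 0.0578). DESeq2 called Ifnar2 higher and Ifnlr1 and Il10rb lower. Of edgeR's alternatives, the sex covariate called Ifnlr1 lower, no filter called Ifnar1 and Ifnar2 higher and Ifnlr1 and Il10rb lower, leaving out WT replicate 1 called Ifnlr1 lower, and leaving out WT replicate 2 called Ifnar1 and Ifnar2 higher. Ifngr1, the receptor gene with the most reads, overlapped between genotypes (-0.23).

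None of 10 JAK-STAT genes was called by edgeR or DESeq2. At an unadjusted p under 0.05 edgeR gave 0 higher and 1 lower (Pias1, log2 fold change -0.55), or 10% against 30.5% of all tested genes. Both KO libraries lay above both WT libraries in 1 of the 10 and below in 4 (31.1% and 32.2% of tested genes). The kinase gene Jak1 stood at 96.7 and 92.8 CPM in KO, against 110.2 and 121 CPM in WT libraries (log2 fold change -0.29, SE 0.11). Among 15 genes of nucleic acid sensing and relay, Tlr3, the endosomal receptor of double-stranded RNA, was called higher, at 29.6 and 30.3 CPM in KO, against 15.3 and 16.5 CPM in WT libraries (log2 fold change 0.91, SE 0.11; edgeR adjusted p = 0.0434). Without either one of the KO libraries edgeR called 0 genes in all, Tlr3 included. DESeq2 called Irf5 and Traf3 higher beside Tlr3. Of 37 other interferon targets tested, none was called by edgeR (4 higher and 1 lower at an unadjusted p under 0.05, or 13.5% against 30.5% of all tested genes). DESeq2 called 4 higher and 1 lower, where it called 6.41% and 6.56% of all tested genes. Among edgeR's alternatives that kept every library, Parp12 was called lower with the sex covariate and Gbp9 higher without a filter. The median log2 fold change of these 37 targets was 0.17 with all libraries, -0.26 without WT replicate 1 and 1.02 without WT replicate 2. The lowest value lay in WT replicate 1 in 30 of them (81.1%, against 28.2% of all tested genes). Lgals3bp, with the most reads, stood at 451 and 452 CPM in KO, against 246 and 324 CPM in WT libraries (log2 fold change 0.66, SE 0.18). Gbp8, which overlaps Gbp4 and Gbp9 on chromosome 5 so that their reads may not be told apart, had the largest log2 fold change of that list, at 17.8 and 25.8 CPM in KO, against 3.13 and 6.23 CPM in WT libraries (log2 fold change 2.21, SE 0.39; edgeR adjusted p = 0.0555). It was picked once its values were known. Of 20 other class I pathway genes none was called by edgeR (1 higher and 4 lower at an unadjusted p under 0.05, where 30.5% of all tested genes passed, and 1 and 3 called by DESeq2), with Calr, an endoplasmic reticulum chaperone, at 0.29. The non-classical class I gene H2-T23, picked in the same way, stood at 168 and 153 CPM in KO, against 274 and 319 CPM in WT libraries (log2 fold change -0.89, SE 0.15; edgeR adjusted p = 0.0506). H2-T23 was called lower by DESeq2 and by limma-voom. EdgeR called it lower with the 1 CPM minimum, with legacy and robust off, without a filter and with the sex covariate. With RLE factors, library size scaling or mitochondrial genes removed, as in the main fit, edgeR did not call it. H2-Q1, H2-Q2, H2-T22 and H2-T24 were, like H2-T23, below both WT libraries in both KO libraries. No more than these 5 of the 20 lay below, where 32.2% of tested genes did so. In 10 of the 20 both KO libraries lay above both WT libraries (31.1% of tested genes), and 14 had positive log2 fold changes.

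Markers of other cells moved with the libraries. Of 7 neutrophil markers 6 passed the filter and none was at 0 in every library, and their sum was 139 and 97.6 CPM in KO, against 42.2 and 148 CPM in WT libraries. Ly6g made up most of that sum, at 90.1 and 87.0 CPM in KO, against 38.2 and 129 CPM in WT libraries. S100a8 stood at 17.9 and 2.77 CPM in KO, against 0.578 and 8.80 CPM in WT libraries, and S100a9, Csf3r and Cxcr2 were likewise highest in KO replicate 1 and lowest in WT replicate 1. Retnlg instead was lowest in WT replicate 2. The 5 B and plasma cell markers summed to 20.6 and 13.2 CPM in KO, against 6.84 and 22.2 CPM in WT libraries. By the mean of log2 values, which weights genes equally, both lists were highest in KO replicate 1 and lowest in WT replicate 1. The 10 macrophage markers summed to 241 and 203 CPM in KO, against 85.4 and 135 CPM in WT libraries. EdgeR called 3 of them higher (Itgam, Cx3cr1 and C1qa), where it called 1.72% of all tested genes higher. At an unadjusted p under 0.05 it gave 7 higher and 0 lower, where 30.5% of tested genes passed. In 8 of the 10 both KO libraries lay above both WT libraries, and in 0 below (31.1% and 32.2% of tested genes). The 5 plasmacytoid dendritic cell markers, which include the member Bst2, summed to 167 and 141 CPM in KO, against 71.4 and 91.7 CPM in WT libraries, with 1 called higher (Irf8), a call lost with RLE scaling. The fits without 1 of the KO libraries called no gene at all, as given for Tlr3, and so cannot show whether the calls in these 2 lists hold. In the sums of both lists the KO libraries stood above WT replicate 2 and WT replicate 1 was lowest. That order was also seen in Mx1, Bst2, Ifi44, Ifi27l2a, Ifit2 and Tapbp. Gene by gene, WT replicate 1 was lowest in 6 of the 10 macrophage markers and 4 of the 5 plasmacytoid markers. Of the called genes, Cx3cr1, C1qa and Irf8 were lowest in WT replicate 2 and Itgam in WT replicate 1. The 11 T cell and leukocyte markers summed to 173 and 146 CPM in KO, against 134 and 147 CPM in WT libraries. Of 4 endothelial markers, 3 passed the filter, and all 4 summed to 14.8 and 13.7 CPM in KO, against 5.68 and 9.01 CPM in WT libraries. The endothelial sum thus had the same order as the macrophage and plasmacytoid sums. The part of any of these cells in the members' values was not tested.

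Markers of 2 further cell types stood in other orders. The 5 fibroblast markers summed to 64.2 and 554 CPM in KO, against 52.1 and 74.4 CPM in WT libraries. The 5 red blood cell markers summed to 1353 and 6681 CPM in KO, against 1976 and 2736 CPM in WT libraries. Both were highest in KO replicate 2, the library that held the highest value of 4 of the 42 members.

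**Figure D5:**
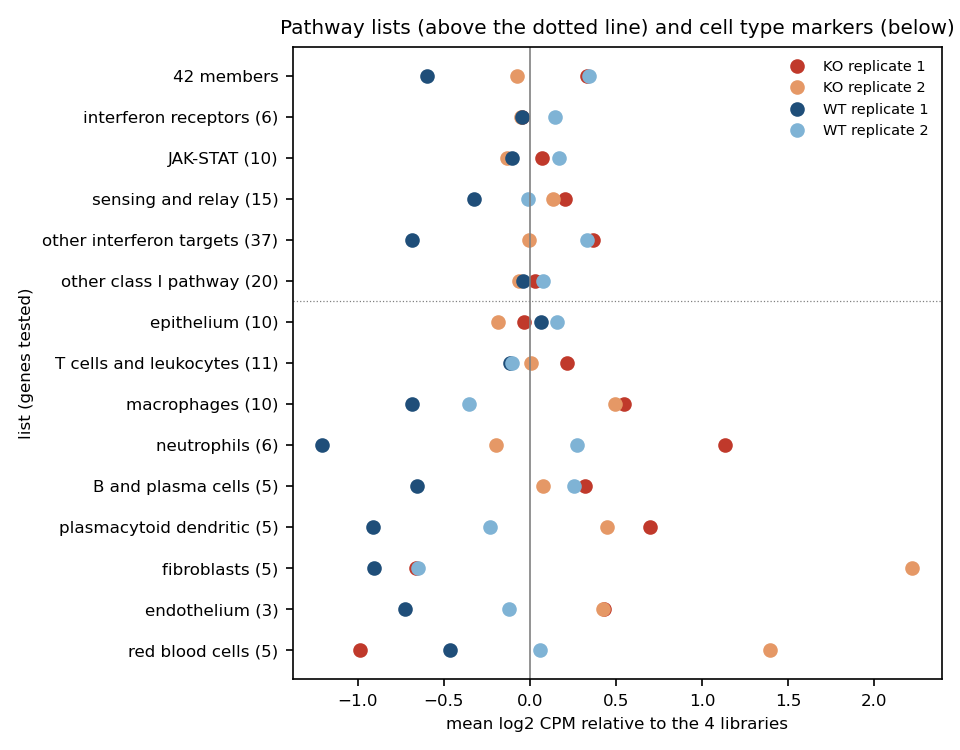
Position of each list in the 4 libraries, as the mean log2 CPM of its tested genes relative to all libraries (horizontal), with 1 point per library, for the members and pathway lists (above the dotted line) and cell type markers (below). The members stand at 0.33 and -0.07 in KO and at -0.60 and 0.34 in WT libraries, and the neutrophil markers at 1.13 and -0.20 in KO and at -1.21 and 0.27 in WT libraries.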

How the data were processed

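The table holds counts per gene as deposited by the authors, 1 column per library. RNA was selected with oligo-dT beads, per the labels' protocols. Per the submitters' processing notes, mm10 was the build, and the tools included RSEM 1.2.29, STAR 2.4.2a and FastQC 0.11.2. For annotation, strand setting and rounding, the sources used here give nothing. Identifiers matched GENCODE M21 for 99.56% of 50600 genes. Counts were filtered with filterByExpr, scaled by TMM and tested with edgeR 4.0.16 (quasi-likelihood, robust, Benjamini-Hochberg over all 14861 tested genes, threshold 0.05) in R 4.3.3. SE is the log2 fold change divided by the square root of F, and log2 CPM used an offset of 0.5. DESeq2 1.42.0, limma 3.58.1 (voom), other scalings and filters, a sex covariate and leaving out each library were alternatives. Replicate numbers follow accession order and pair nothing. Members and lists were chosen with earlier results of these data known. All members were given, and of other lists the called gene and the gene with most reads were named, with exceptions stated; some genes are not reported here. The test was checked on simulated counts. Total counts set a detection floor of 3 counts per library, and this floor covers counting error only. Promoter windows came from RefSeq (GRCm38.p6).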

Additional observations from a re-analysis of the deposited data

How the results depend on the processing

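Over all tested genes edgeR called 255 higher and 282 lower in KO. Library size scaling gave 604 higher and 186 lower, no filter 862 and 770, DESeq2 952 and 975, and sex as a covariate 696 and 713. DESeq2 called 1 member higher and 1 lower, against 0 and 0 with edgeR. With library size scaling 1 member instead of 4 had both KO libraries below both WT libraries. Signs changed with library size scaling in Ddx58 (0.010), Dhx58 (0.087), Irf7 (0.046), Ifit3 (0.0065), Oas1a (0.032), Oasl2 (0.098) and Gbp3 (0.019), with limma-voom in Oasl2 (0.029) and Gbp3 (0.14), and with the sex covariate in Oasl2 (0.020) and Gbp3 (0.18). Size factors by RLE, no filter, a minimum of 1 CPM in 2 libraries, edgeR's other settings and removal of mitochondrial genes changed no sign and no call of a member. Causes of these differences were not tested.

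Leaving out 1 library at a time, with the lone library assumed to vary like the other group, gave 0 to 1271 genes higher and 0 to 1019 lower, 0 to 7 members higher, 8 to 34 members with KO above WT, 4 to 23 below, and a member median log2 fold change of -0.17 to 0.63. Without KO replicate 1 that median was -0.11 and without WT replicate 1 it was -0.17. Log2 fold changes of 25 members crossed 0 in these fits. They ran for Dhx58 from -0.43 to 0.47, Gbp2 from -2.06 to 1.86, Gbp3 from -0.87 to 1.60, Gbp7 from -0.67 to 0.70, H2-D1 from -0.15 to 0.39, Ifi27l2b from -0.60 to 0.072, Ifih1 from -0.37 to 0.028, Ifit1 from -0.17 to 0.29 and Ifit1bl1 from -0.42 to 1.66. The range was Ifit3b from -0.79 to 0.18, Irf1 from -0.15 to 0.42, Irf9 from -0.18 to 0.27, Isg15 from -0.24 to 2.33, Nlrc5 from -0.043 to 1.41, Oas1a from -0.46 to 0.36, Oas1g from -0.36 to 1.22, Oas2 from -1.23 to 1.04 and Oas3 from -0.47 to 1.62. The range was Oasl1 from -0.046 to 0.60, Oasl2 from -0.50 to 0.63, Psmb9 from -0.23 to 0.44, Stat2 from -0.49 to 0.055, Tap1 from -0.18 to 1.38, Tap2 from -0.036 to 0.65 and Usp18 from -0.88 to 0.62. No paired analysis was possible because the labels give the KO and WT libraries no shared replicate numbers, and the sex covariate above, which puts 1 library of each genotype together, rests on sex read from the counts.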
